A study of Mus musculus with 21 samples.

Results

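The integrin and laminin chains are the 37 mouse protein-coding genes whose symbols name an integrin alpha, an integrin beta or a laminin chain, out of 55487 gene IDs measured. They were picked by a rule on symbols alone (Itga, Itgb, Lama, Lamb or Lamc followed by a chain's number or letter), with no measured value in the rule. They comprise 18 integrin alpha, 8 integrin beta, 5 laminin alpha, 3 laminin beta and 3 laminin gamma chains.

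An integrin is a receptor of one alpha and one beta chain that spans the cell membrane, grips the matrix outside and ties it to the actin skeleton through talin and kindlin inside. The alpha chain largely sets the ligand: α3, α6 and α7 bind laminin, α1, α2, α10 and α11 bind collagen, α5, α8, αV and αIIb bind ligands with the RGD peptide such as fibronectin, and α4 and α9 bind VCAM1, tenascin C and related proteins. A laminin is a cross-shaped trimer of one alpha, one beta and one gamma chain and is the founding polymer of a basement membrane. Laminins with the α1 chain (Lama1) lie in the earliest basement membranes of the embryo, while α4 (Lama4) and α5 (Lama5) are the alpha chains of vascular basement membranes.

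The RNA was that of day 4 embryoid bodies, which are aggregates of differentiating mouse embryonic stem cells, after a sort for 2 surface receptors, PDGFRalpha (encoded by Pdgfra) and FLK1 (encoded by Kdr). Cells with both receptors are called DP and cells with FLK1 only are called SP. In the line T-GFP; Etv2-tdTomato (TGET) each gate was split by tdTomato into Etv2-negative and Etv2-positive cells, where tdTomato reports Etv2, an ETS transcription factor needed for the endothelial and blood lineages. The wildtype (WT) line A2lox.Cre gave DP and SP cells, and the iEtv2 line gave SP cells after 2 µg/ml doxycycline from day 2.5 had switched on Etv2. No genotype other than these reporters and the inducible Etv2 was given, and all lines were kept on irradiated mouse embryonic fibroblasts and then without feeders before they were differentiated. Each of the 7 groups had 3 libraries. The labels give no doxycycline for WT cells, so line, doxycycline and Etv2 cannot be told apart in iEtv2 over WT. No label says that replicates were separate cultures, so p-values measure the spread between these samples, which may be technical.

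Counts assigned to genes ran from 25045553 to 32777143 in the 12 TGET libraries and from 22406153 to 28184904 in the other 9. A limit of 3 counts then stands for 0.0915 to 0.134 CPM, the count scaled to library size, for counting error only. Because the 9 files carry summary entries of another kind and may have been counted otherwise, no level is set against one of the other set. The sort genes went with the labels: Etv2 ranged from 18.1 to 27.7 CPM in the 6 Etv2-negative and from 48.3 to 109 CPM in the 6 Etv2-positive libraries, and from 73.9 to 118 CPM in WT SP and 232 to 250 CPM in iEtv2 SP. Pdgfra was below 60 CPM in every SP library and above 120 CPM in every DP library. The summed level of 12 endothelial markers was 24.4 to 35.6 CPM in DP Etv2-negative, 53.2 to 76.6 in DP Etv2-positive, 42.3 to 64.7 in SP Etv2-negative and 142 to 267 CPM in SP Etv2-positive cells. It was 22.9 to 39 CPM in WT DP, 160 to 222 in WT SP and 1585 to 2071 CPM in iEtv2 SP. SP Etv2-negative replicate 2 and SP Etv2-positive replicate 3 stood apart by ribosomal RNA, with 1.28% and 1.17% of counts against at most 0.338% in the other TGET libraries. In the other 9 libraries this share also varied within groups. It was 0.497%, 1.68% and 2.12% in WT DP, 1.29% to 1.45% in WT SP and 0.785% to 1.97% in iEtv2 SP. In bulk RNA a change in the share of a cell type and a change of RNA per cell cannot be told apart.

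Etv2 binds DNA at sites built on the ETS core GGAA, so the start regions of 6 members are shown first: Itga1, Itga2 and Itga3, whose RNA was higher with induced Etv2, Itga8 and Itgb5, whose RNA was lower, and Itga5, which did not pass that test. The sequences are RefSeq's on GRCm38.p6 and end just before the annotated start, except that of Itga3, which is printed up to its first base in an annotated exon, 87 bases before the start. Each is printed 5′ to 3′ on the gene's own strand, with GGAA and its complement TTCC in capitals. They lie at chr13:115101965-115102214 (Itga1, minus strand), chr13:114932101-114932350 (Itga2, minus), chr11:95076802-95076964 (Itga3, minus), chr15:103366792-103367041 (Itga5, minus), chr2:12301945-12302194 (Itga8, minus) and chr16:33829415-33829664 (Itgb5, plus). The RefSeq starts of Itga5 and Itga8 lie 28 and 22 bases from the nearest GENCODE start. The bases after them were not found in a GENCODE transcript of the gene, so their strand is RefSeq's.
Itga1: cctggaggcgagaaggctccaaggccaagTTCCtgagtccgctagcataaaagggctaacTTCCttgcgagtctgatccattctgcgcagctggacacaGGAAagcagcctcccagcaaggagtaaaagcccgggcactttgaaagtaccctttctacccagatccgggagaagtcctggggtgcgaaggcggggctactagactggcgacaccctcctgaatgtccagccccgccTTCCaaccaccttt
Itga2: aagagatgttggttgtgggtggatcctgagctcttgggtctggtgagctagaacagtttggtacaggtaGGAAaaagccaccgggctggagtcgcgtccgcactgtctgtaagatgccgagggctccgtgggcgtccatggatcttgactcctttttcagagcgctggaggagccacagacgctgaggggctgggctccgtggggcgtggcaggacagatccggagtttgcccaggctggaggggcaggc
Itga3: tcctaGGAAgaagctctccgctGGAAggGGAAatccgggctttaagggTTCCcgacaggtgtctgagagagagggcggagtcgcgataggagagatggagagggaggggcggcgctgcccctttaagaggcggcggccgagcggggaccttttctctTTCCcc
Itga8: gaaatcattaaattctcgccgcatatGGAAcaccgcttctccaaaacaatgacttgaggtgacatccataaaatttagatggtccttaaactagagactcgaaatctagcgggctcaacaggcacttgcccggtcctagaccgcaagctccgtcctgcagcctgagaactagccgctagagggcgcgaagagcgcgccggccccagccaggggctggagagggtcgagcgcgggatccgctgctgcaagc
Itgb5: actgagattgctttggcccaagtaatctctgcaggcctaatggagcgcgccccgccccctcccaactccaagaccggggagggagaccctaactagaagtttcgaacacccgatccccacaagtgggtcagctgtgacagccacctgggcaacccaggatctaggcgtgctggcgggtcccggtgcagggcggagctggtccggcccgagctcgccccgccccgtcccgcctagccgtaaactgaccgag
Itga5: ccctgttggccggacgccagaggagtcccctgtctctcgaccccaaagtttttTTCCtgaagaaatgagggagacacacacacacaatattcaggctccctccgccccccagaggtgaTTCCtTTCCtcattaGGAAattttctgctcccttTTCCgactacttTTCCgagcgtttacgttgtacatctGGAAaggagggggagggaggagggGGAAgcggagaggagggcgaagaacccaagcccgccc
The Itga1 window holds 4 of these cores, Itga2 1, the 163 bases of Itga3 5, Itga5 8, Itga8 1 and Itgb5 0. GGAA on either strand occurs in 93.4% of 32851 mouse windows of 250 bases, with a median of 3, so its presence marks out no gene, and 8.69% of windows hold 6 or more, as do that of Itga5 and the whole 250-base window of Itga3, which has 7. AGATAA, a sequence bound by GATA factors, is in 9.99% of all windows and in none of the 6 shown. A match is a run of letters and was not tested as a binding site. Windows were found for 23 of the 37 members. Itga3 has a second RefSeq start, whose window at chr11:95069199-95069448 holds 3 GGAA cores and is not shown.

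Enough counts for a test were found for 30 members in the TGET libraries and 32 in the others. The genes left out in TGET were Itga2, Itgad, Itgal, Itgam, Itgax, Itgb2 and Itgb6, and in the second set Itgad, Itgam, Itgax, Itgb6 and Lama2. A gene was called at an adjusted p below 0.05 in edgeR's quasi-likelihood test, with Benjamini-Hochberg adjustment over all genes tested, and values after ± are standard errors of log2 fold changes or, for shares, standard deviations over 3 libraries. All p-values below are of this kind.

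Members of every chain class were called between DP cells with and without the Etv2 reporter, and of every class but laminin beta in SP. In DP cells 10 members rose and 4 fell, 14 of the 30 tested, where 30.7% of all 17690 tested genes were called, 16% higher and 14.7% lower. By class, 4 of 13 integrin alpha, 2 of 6 integrin beta, 4 of 5 laminin alpha, 2 of 3 laminin beta and 2 of 3 laminin gamma chains were called in DP. The largest increases were of Itga3, Lama3, Itga4 and Lama4 and the largest decrease was of Itga8. In SP cells 5 members rose and 5 fell, 10 of 30 against 25.5% of all genes (13.1% higher, 12.4% lower), led by Itga2b upward and Itga8 downward. There 4 of 13 integrin alpha, 3 of 6 integrin beta, 1 of 5 laminin alpha and 2 of 3 laminin gamma chains were called. The members' median log2 difference was 0.18 in DP and 0.07 in SP, where that of all genes was 0.00 and -0.01. The calls shared by both gates were Itga9, Itgb1 and Lama4 upward, which is 30% of the DP increases and 60% of the SP increases, and Itga8 and Lamc3 downward, 50% of the DP and 40% of the SP decreases. The share of all genes called in both gates was not counted.

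Several chains separated SP from DP cells both in TGET cells without the reporter and in WT cells. Without the reporter 7 members were higher and 2 lower in SP, 9 of 30 against 10.9% of all genes (6.1% higher, 4.84% lower). In WT cells 10 were higher and 3 lower, 13 of 32 against 15.8% of 16288 genes (9.08% higher, 6.76% lower). Itga9, Itgb1, Itgb3, Lama4, Lama5 and Lamb2 were higher in both, 85.7% of the TGET and 60% of the WT increases, and Itga8 and Lama1 were lower in both. The libraries of these comparisons are separate, and the share of all genes called in both was not counted. With the reporter, 2 members were higher (Itga2b, Itgb3) and 4 lower (Itga4, Itga8, Itgb5, Lama1) in SP, 6 of 30 against 13.9% of all genes (6.95% higher, 6.94% lower).

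Induced Etv2 went with the most calls. In iEtv2 over WT SP cells 11 members rose and 8 fell, 19 of 32, where 50.8% of all genes were called (26.4% higher, 24.4% lower), so the share of members is near that of all genes. The reporter effect differed between SP and DP for 6 of 30 members, against 3.97% of all genes (1.52% higher, 2.45% lower), with Itga2b and Lama1 higher and Itga3, Itgb5, Lama5 and Lamb2 lower in that difference. That count was 0 without DP Etv2-negative replicate 1 or 2, SP Etv2-negative replicate 1 or SP Etv2-positive replicate 2, 1 without DP Etv2-positive replicate 3, SP Etv2-negative replicate 3 or SP Etv2-positive replicate 3, 2 without DP Etv2-positive replicate 2, 3 without SP Etv2-negative replicate 2 or SP Etv2-positive replicate 1 and 9 without DP Etv2-negative replicate 3. The share of all genes called fell as well in these fits, to between 0.279% and 0.795% without DP Etv2-negative replicate 1 or 2 or SP Etv2-negative replicate 1 and 1.04% without SP Etv2-positive replicate 2, and was 7.07% without DP Etv2-negative replicate 3. Where the members' count was lower than 6, edgeR gave 11 to 14 members an unadjusted p below 0.05. The share of all genes at that unadjusted p was not counted. With all libraries DESeq2 called 6 members, and 8.3% of all genes. Without both libraries of high ribosomal RNA share, 14 members were called for the reporter in DP, 6 in SP, 8 and 4 for SP over DP without and with it and 0 for the difference, where 12 had an unadjusted p below 0.05 by edgeR. The shares of all genes called were then 29.3%, 13.8%, 8.27%, 6.19% and 0.666%. Reporter-in-DP and SP-over-DP comparisons without the reporter share the DP Etv2-negative libraries, and the WT gate and iEtv2 comparisons share the WT SP libraries. The 3 libraries of one group did not overlap the 3 of the other for 15 of 30 members with the reporter in DP (42% of all genes), 14 of 30 in SP (44.8%), 13 and 12 of 30 for SP over DP without (32.1%) and with it (32.4%), 14 of 32 in WT (32.1%) and 20 of 32 in iEtv2 over WT (60.4%). The map of log2 fold changes shows the members side by side.

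**Figure D1:**
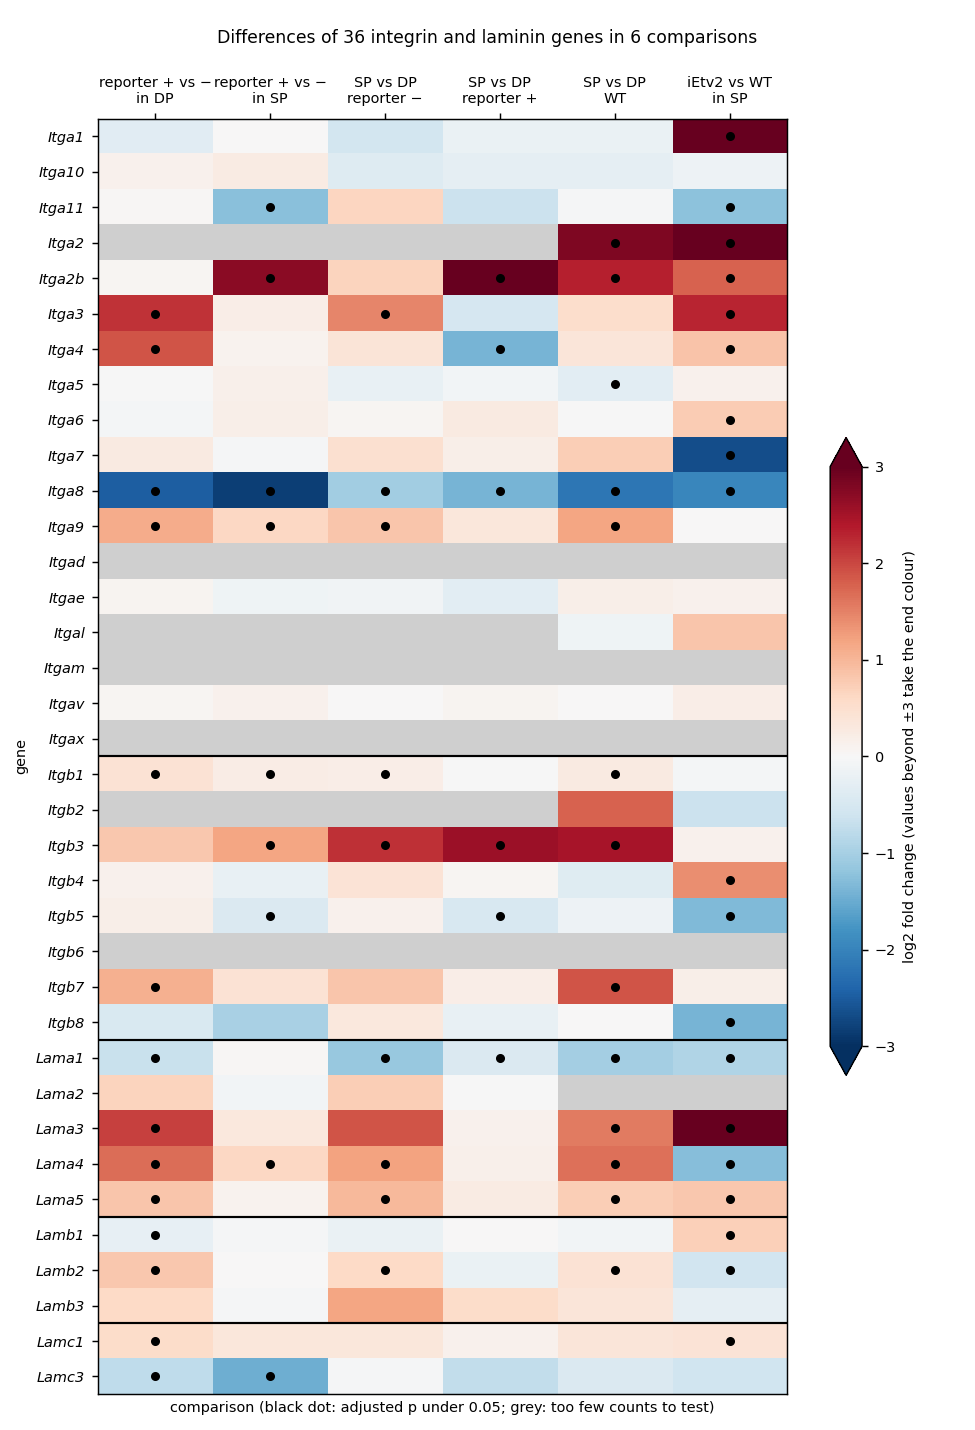
Log2 fold changes (colour) of 36 integrin and laminin genes (vertical axis) in 6 comparisons (horizontal axis); black dots mark an adjusted p below 0.05 and grey genes with too few counts to test. Itga8 is blue with a dot in all 6 columns, and the reds of Itga1 and Itga2 stand in the iEtv2 column, with Itga2 also red in the WT gate.

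Counts divided by the length of each gene's exons, and scaled to a fixed sum over all genes, give the make-up of a class. By this level Itgb1, the partner of most alpha chains, made up 73.2 to 88.4% of beta chain RNA in the group means, and Itgb5, the β5 partner of αV, made up 9.83 to 26.2%. The other 6 beta chains were each at most 0.832%. Among alpha chains Itga5, the fibronectin receptor chain, led in every group with 35.5 to 54.1%. Itga6 took 12.6 to 16.4% and Itgav 8.26 to 12.4%. Itga8 had a larger mean share than Itga6 in DP Etv2-negative cells (16.9%), Itga9 in DP Etv2-positive (14.5%) and SP Etv2-positive cells (17.6%) and Itga3 in iEtv2 SP (18.6%). The summed level of alpha chains per length was 107 to 125 in SP Etv2-negative and 107 to 128 in SP Etv2-positive libraries, so these groups overlapped, whereas it was 213 to 252 in WT SP and 329 to 394 in iEtv2 SP.

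**Figure D2:**
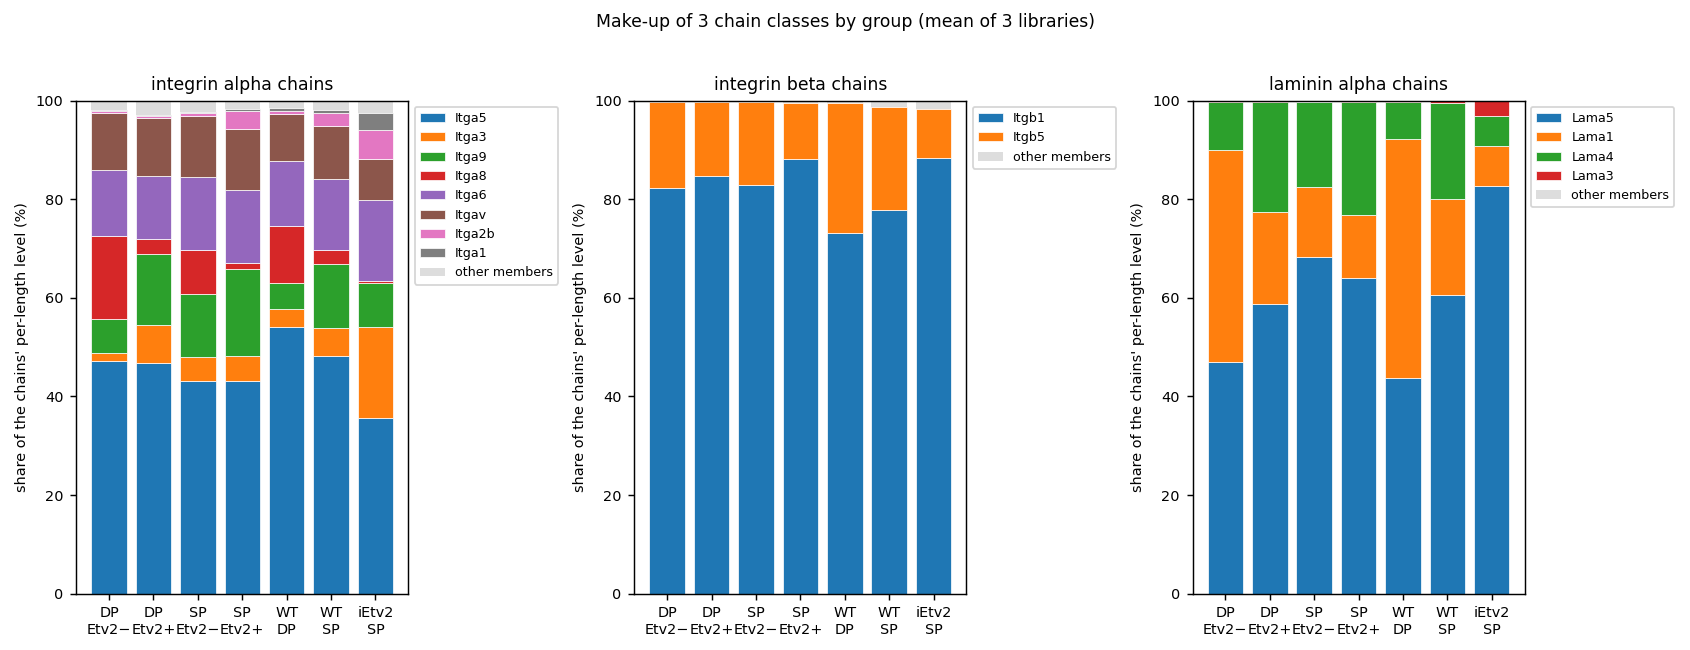
Share of each chain (percent of the per-length level of its class, mean of 3 libraries) in the 7 groups, for integrin alpha, integrin beta and laminin alpha chains. Itga8 shrinks from 16.9% to 3.03% between the DP TGET groups, Lama1 from 43% to 18.7%, and Lama5 takes 82.7% of laminin alpha RNA in iEtv2 SP cells.

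Itga8 (chromosome 2, 12106632 to 12301922, minus strand, mm10), which encodes the α8 chain that binds nephronectin through RGD, was called lower in all of these contrasts but the reporter-by-gate difference. It measured 70.8, 69.5 and 56.6 CPM in DP Etv2-negative and 10.1, 16.4 and 9.24 CPM in DP Etv2-positive libraries. In SP it measured 33.2, 32.8 and 30.2 CPM without and 3.87, 6.01 and 3.67 CPM with the reporter. Neither pair of groups overlapped. The log2 fold changes with the reporter were -2.46 ± 0.20 in DP (edgeR adjusted p = 3.81e-06) and -2.83 ± 0.22 in SP (edgeR adjusted p = 1.33e-05). SP cells had less of it than DP cells, by -1.03 ± 0.18 without and -1.40 ± 0.22 with the reporter. In the second set it measured 50, 66.2 and 77.2 CPM in WT DP, 12.5, 18.2 and 12.4 CPM in WT SP and 2.07, 5.64 and 3.49 CPM in iEtv2 SP. Those 3 groups were in order without overlap, with log2 fold changes of -2.16 ± 0.27 for SP over DP and -1.95 ± 0.30 for iEtv2 over WT. Its share of alpha chain RNA ran from 16.9 ± 1.16% in DP Etv2-negative to 1.12 ± 0.305% in SP Etv2-positive cells, and to 0.492 ± 0.199% in iEtv2 SP. An antisense gene overlaps 5.05% of its exon bases, and the strand setting of the counting is not given. The summed level of 8 paraxial mesoderm markers moved with it, from 155 to 239 CPM in DP Etv2-negative to 17.6 to 34.2 CPM in DP Etv2-positive and from 34.1 to 63.8 to 8.7 to 12.7 CPM in SP, with 6 of the 7 tested markers lower in each gate and 1 higher, and its part in the result was not tested. None of these 8 markers was at 0 in all libraries of a group.

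Itga9 encodes the α9 chain, a receptor for tenascin C and VCAM1. It rose with the reporter from 27.4, 22.8 and 31.3 to 63.6, 61.1 and 51.8 CPM in DP and from 54.7, 40 and 50.2 to 81, 72.4 and 68.4 CPM in SP. The groups did not overlap in either gate, and the log2 fold changes were 1.12 ± 0.13 (edgeR adjusted p = 5.64e-05) and 0.62 ± 0.13 (0.00436). WT SP cells had 64, 65.4 and 73.8 CPM against 27.8, 31.4 and 30.5 in WT DP, while iEtv2 cells at 49.5, 84.3 and 71.2 CPM overlapped WT SP. Itga4, the α4 chain, another VCAM1 receptor, rose in DP from 1.02, 2.2 and 4.48 to 4.96, 9.44 and 14.3 CPM, a log2 fold change of 1.89 ± 0.41 (edgeR adjusted p = 0.00368), which was 2.54 without DP Etv2-negative replicate 3. The SP groups stood between 2.99 and 3.98 CPM with and without the reporter, and that difference was 0.10 ± 0.42. With the reporter, Itga4 was lower in SP than in DP by -1.40 ± 0.40, a call that was lost without any 1 of 5 libraries (DP Etv2-positive replicates 2 and 3 and all SP Etv2-positive replicates; edgeR adjusted p = 0.0614 to 0.133). In iEtv2 cells it measured 5.18, 6.25 and 6.9 CPM against 3.18, 4.64 and 2.21 in WT SP (log2 0.87 ± 0.31, edgeR adjusted p = 0.0346), a call that was lost without WT SP replicate 1 or 3 or iEtv2 replicate 2 or 3. The gene Cerkl overlaps 8.04% of its exon bases on the other strand.

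Itga2b encodes αIIb, the CD41 antigen of megakaryocytes and of the first blood progenitors, and Itgb3 its partner β3. In SP Etv2-positive cells Itga2b measured 6.19, 6.49 and 19.9 CPM, against 1.33, 1.4 and 2.25 CPM in SP Etv2-negative cells. In DP it lay between 0.809 and 1.49 CPM with or without the reporter. The SP groups did not overlap, and replicate 3, with 581 counts against 168 and 175 in the other SP Etv2-positive libraries, stood above its group. The log2 fold change with the reporter in SP was 2.71 ± 0.42 (edgeR adjusted p = 0.000731), and 1.93 without SP Etv2-positive replicate 3. SP over DP with the reporter was 3.33 ± 0.45 (edgeR adjusted p = 0.000836), and 2.55 without that library. Itgb3 measured 0.157, 0.331 and 0.202 CPM in DP Etv2-negative, 0.368, 0.487 and 0.403 in DP Etv2-positive, 0.789, 1.04 and 1.43 in SP Etv2-negative and 1.62, 1.67 and 4.11 CPM in SP Etv2-positive cells. Its groups followed each other without overlap. Itgb3 was not called between the DP groups (log2 0.81, edgeR adjusted p = 0.313), where it had 4, 11 and 6 against 10, 13 and 13 counts. Its reporter effect in SP, 1.18 ± 0.35 (edgeR adjusted p = 0.026), became 0.59 without SP Etv2-positive replicate 3, and the call was lost without that library or SP Etv2-negative replicate 1 or 2 (edgeR adjusted p = 0.0737 to 0.149). SP over DP was 2.18 ± 0.49 without the reporter, which did not pass once DP Etv2-negative replicate 1 or SP Etv2-negative replicate 3 was left out, and 2.56 ± 0.41 with it, 1.96 without SP Etv2-positive replicate 3.

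The WT gates gave the same order for this receptor. Itga2b measured 2.17, 1.68 and 1.98 CPM in WT DP and 14.5, 7.65 and 7.51 CPM in WT SP, and Itgb3 0.839, 1.22 and 0.496 against 6.67, 4.98 and 2.59 CPM. The log2 fold changes were 2.34 ± 0.29 (edgeR adjusted p = 0.000397) and 2.47 ± 0.43 (0.00305). In iEtv2 SP cells Itga2b was higher again at 26.6, 39.8 and 34.3 CPM, by 1.76 ± 0.24 (edgeR adjusted p = 0.00013). Itgb3, at 7.48, 4.38 and 3.86 CPM, overlapped WT SP and differed by 0.14 ± 0.36. The summed level of 11 primitive blood and megakaryocyte markers was, like Itga2b, highest among TGET groups in SP Etv2-positive libraries, at 106 to 222 CPM. It was 1.06 to 1.18 CPM in DP Etv2-negative, 13 to 21.8 in DP Etv2-positive and 9.36 to 24.1 CPM in SP Etv2-negative libraries. The sum was thus higher with the reporter in DP, with 1 of 5 tested markers called higher, where Itga2b was not called (log2 0.06, edgeR adjusted p = 0.953). The marker sum was 222 CPM in SP Etv2-positive replicate 3 and at most 123 CPM in the others of that group, and the platelet genes Gp1bb and Gp9 were at 0 in all 12 TGET libraries. All 5 tested markers of this list rose with the reporter in SP. In the second set the sum was 11.2 to 17.2 CPM in WT DP, 137 to 186 in WT SP and 293 to 308 CPM in iEtv2 SP, where 1 of 4 tested markers rose and 3 fell. Their part in the result was not tested.

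Itga1 and Itga2 encode the α1 and α2 chains of collagen receptors and are neighbours on chromosome 13, 20995 bases apart and both on the minus strand. Itga1 measured 53, 59.4 and 74.2 CPM in iEtv2 SP against 6.99, 7.99 and 7.26 in WT SP, a log2 fold change of 3.07 ± 0.23 (edgeR adjusted p = 1.64e-06). Itga2 measured 5.75, 11.6 and 12.7 CPM against 0.393, 0.304 and 0.255, a log2 fold change of 4.96 ± 0.39 (edgeR adjusted p = 2.45e-06). Neither gene's groups overlapped. In WT DP cells Itga2 had 1, 2 and 0 counts, and in WT SP 10, 8 and 6, so the direction was called (edgeR adjusted p = 0.0479) without a usable fold. The call was lost without any 1 of the WT libraries or iEtv2 replicate 2. In the TGET libraries Itga1 ranged from 1.79 to 4.16 CPM over the 12 TGET libraries, with differences of -0.35 ± 0.27 in DP and 0.01 ± 0.28 in SP, and Itga2, with 0 to 6 counts in each, was not tested. Itga11, also a collagen-binding chain, fell with the reporter in SP from 0.896, 1.5 and 1.5 to 0.442, 0.742 and 0.445 CPM (log2 -1.26 ± 0.31, edgeR adjusted p = 0.0109) and in iEtv2 cells by -1.23 ± 0.30. Itga10, at 1.01 to 2.12 CPM in all 21 libraries, did not pass in any comparison (lowest edgeR adjusted p = 0.207), and 33.5% of its exon bases belong also to the gene Gm42957.

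**Figure D3:**
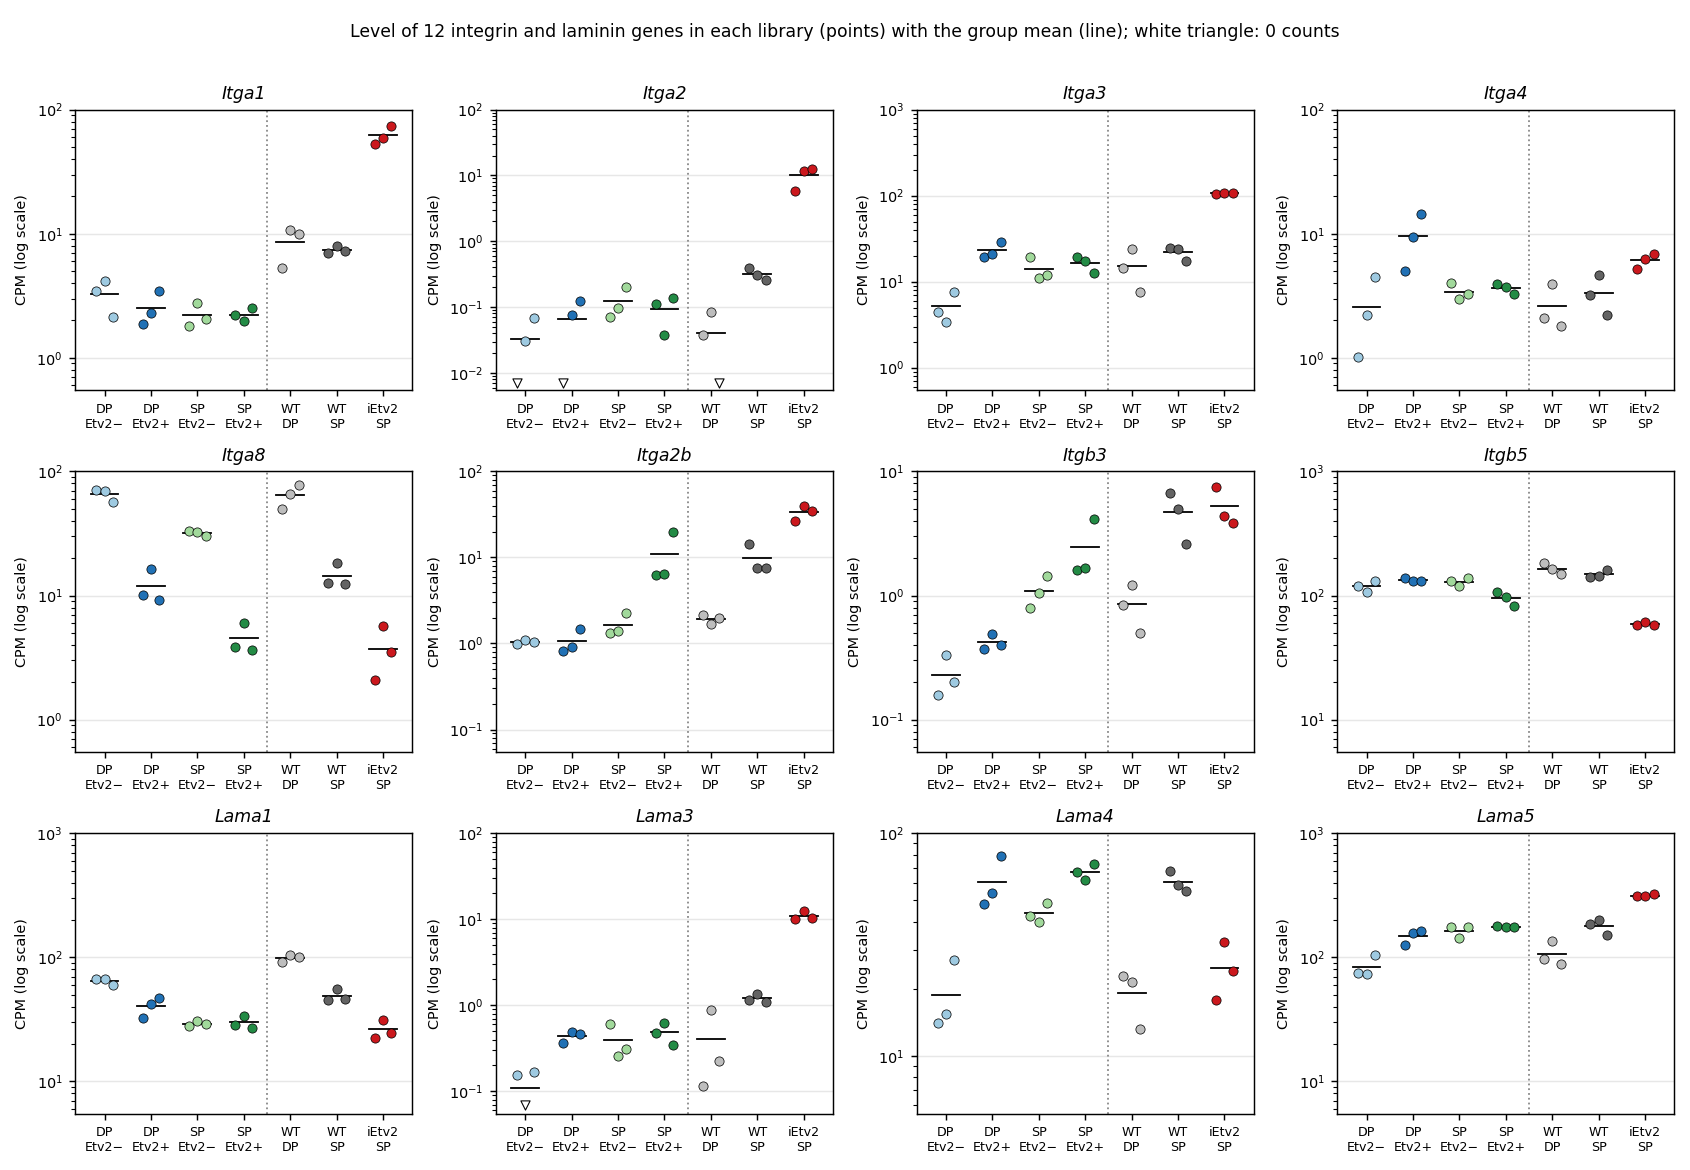
Level (CPM, log axis) of 12 integrin and laminin genes in each library (points) of the 7 groups, with group means as lines and white triangles for 0 counts; the dotted line separates the 2 sets, whose levels are not comparable. Itga1, Itga2, Itga3 and Lama3 are highest in iEtv2 SP among the second set, and SP Etv2+ replicate 3 lies above its group for Itga2b and Itgb3.

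Among the laminin-binding chains Itga3 rose with the reporter in DP from 4.39, 3.44 and 7.64 to 19.5, 21.1 and 29 CPM, a log2 fold change of 2.17 ± 0.29 (edgeR adjusted p = 0.000147). In SP it measured 19.5, 10.9 and 12.1 CPM without and 19.2, 17.2 and 12.5 CPM with the reporter, which overlapped, and the difference was 0.20 ± 0.27. It was higher in SP than in DP without the reporter, by 1.46 ± 0.30 (edgeR adjusted p = 0.00807). In iEtv2 SP it measured 104, 108 and 108 CPM against 24.5, 24 and 17.2 in WT SP (log2 2.28 ± 0.29, edgeR adjusted p = 8.33e-05). Its share of alpha chain RNA was 18.6 ± 1.31% there and 5.66 ± 1.03% in WT SP. Itga6 was higher in iEtv2 SP than in WT SP, at 135, 156 and 155 against 81.4, 93.6 and 89.7 CPM (log2 0.75 ± 0.13, edgeR adjusted p = 0.000528), and its level ran from 47.2 to 81.2 CPM in TGET. Itga7, low everywhere, fell in iEtv2 cells to 0.345, 0.457 and 0.271 CPM from 2.43, 2.59 and 1.74 (log2 -2.65 ± 0.34, edgeR adjusted p = 8.67e-05). Its TGET libraries had 1.04 to 2.3 CPM.

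Itga5 and Itgav encode the RGD-binding chains of fibronectin and vitronectin receptors. Itga5 ranged from 94.9 to 132 CPM in TGET and differed with the reporter by -0.00 ± 0.08 in DP and 0.15 ± 0.08 in SP. WT SP cells had slightly less than WT DP, at 155, 160 and 168 against 176, 207 and 214 CPM (log2 -0.31 ± 0.09, edgeR adjusted p = 0.0365), and this call was lost without any 1 of 6 libraries, among them all WT SP libraries. Itgav ranged from 54.7 to 76.3 CPM in TGET and from 62.1 to 93.6 CPM in the second set and did not pass in any comparison (lowest edgeR adjusted p = 0.268). The leukocyte chains were close to the floor. Itgad had 1 count in all 21 libraries, Itgax 0 and Itgam at most 2 in a library, and Itgal reached at most 0.711 CPM and Itgb2 at most 0.509 CPM. Itgam shares 68.7% of its exon bases with the gene Gm49368. The 9 myeloid and lymphoid markers summed to 2.86 to 15.4 CPM, with Cd3e at 0 in 5 of the 7 groups. Itgae, the αE chain that binds E-cadherin, stood at 0.258 to 1.18 CPM (lowest edgeR adjusted p = 0.625).

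Among beta chains Itgb1 rose slightly with the reporter, from 644, 651 and 636 to 849, 858 and 889 CPM in DP and from 760, 734 and 712 to 885, 881 and 802 CPM in SP. The groups did not overlap, and the log2 fold changes were 0.43 ± 0.05 (edgeR adjusted p = 6.03e-05) and 0.22 ± 0.05 (0.00758). It was also higher in SP than in DP without the reporter (0.19 ± 0.05) and in WT (0.27 ± 0.07), the first call lost without any 1 of its 6 libraries and the second without WT DP replicate 3 or WT SP replicate 3. Itgb5 moved the other way. It fell with the reporter in SP from 131, 120 and 138 to 107, 97.7 and 83 CPM (log2 -0.44 ± 0.09, edgeR adjusted p = 0.00543). In DP it measured 119, 106 and 131 CPM without and 139, 132 and 132 CPM with the reporter (0.18 ± 0.09, edgeR adjusted p = 0.171). It fell in iEtv2 cells from 141, 143 and 161 to 57.7, 61.7 and 58.1 CPM (log2 -1.33 ± 0.09, edgeR adjusted p = 8.36e-07), and its share of beta chain RNA was 9.83 ± 0.272% there and 20.8 ± 1.06% in WT SP.

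The low beta chains differed too. Itgb7, which pairs with α4 or αE, was higher in WT SP at 4.28, 2.89 and 3.18 CPM than in WT DP at 0.839, 1.05 and 0.902 (log2 1.89 ± 0.22, edgeR adjusted p = 0.000271). With the reporter in DP it rose from 0.235, 0.452 and 0.337 to 0.699, 0.637 and 0.837 CPM (1.06 ± 0.35), a call lost without any 1 of 6 libraries (edgeR adjusted p = 0.052 to 0.137). Itgb4, the β4 partner of α6 in hemidesmosomes, rose in iEtv2 cells from 1.57, 1.33 and 1.23 to 3.76, 3.54 and 3.52 CPM (log2 1.38 ± 0.20, edgeR adjusted p = 0.000187). Itgb8, a β chain that pairs with αV, fell there to 0.537, 1.68 and 1.08 CPM from 2.47, 4.37 and 1.74 (-1.38 ± 0.49, edgeR adjusted p = 0.0358), and the call was lost without any 1 of 4 of these 6 libraries. In SP its reporter effect of -0.98 ± 0.36 (edgeR adjusted p = 0.0651) passed with the replicate number as a block (edgeR adjusted p = 0.0233). Itgb6 had at most 2 counts in a library.

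The laminin alpha chains exchanged places between the groups. In DP Etv2-negative cells Lama1 took 43 ± 6.78% of laminin alpha RNA next to 47 ± 4.21% for Lama5 and 9.78 ± 2.53% for Lama4. In DP Etv2-positive cells the shares were 18.7 ± 0.553%, 58.8 ± 3.01% and 22.2 ± 3.01%. In WT cells Lama1 took 48.5 ± 5.04% in DP and 19.6 ± 1.85% in SP, and it took 8.08 ± 1.13% in iEtv2 SP. The Lama4 share rested on the gene's length: with its longest transcript in place of all exons the shares of this class moved, as given in the closing section.

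Lama1 fell with the reporter in DP from 66.4, 66.8 and 60.1 to 32.4, 42.2 and 47.2 CPM (log2 -0.67 ± 0.12, edgeR adjusted p = 0.000923). In SP it was low in both groups, at 27.9, 30.6 and 29 CPM without and 28.7, 33.9 and 27.2 CPM with the reporter (0.04 ± 0.12). SP was lower than DP by -1.14 ± 0.12 without the reporter (edgeR adjusted p = 0.000176) and by -0.44 ± 0.12 with it, the latter a call lost without any 1 of 4 of its 6 libraries. In WT it fell from 92.2, 105 and 101 CPM in DP to 45.5, 55.5 and 46.4 in SP (log2 -1.01 ± 0.12, edgeR adjusted p = 0.000331) and in iEtv2 SP to 22.6, 31.3 and 24.8 CPM (-0.90 ± 0.12, edgeR adjusted p = 0.000127).

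Lama4 rose with the reporter in DP from 14, 15.5 and 27 to 48, 54 and 79.5 CPM (log2 1.68 ± 0.22, edgeR adjusted p = 0.000132). The groups did not overlap, and DP Etv2-negative replicate 3 was the highest of its group. In SP it measured 42.4, 39.8 and 48.7 CPM without and 66.7, 61.4 and 73.1 CPM with the reporter (0.62 ± 0.21, edgeR adjusted p = 0.0491), a call that was lost without any 1 of 8 of the 12 TGET libraries (edgeR adjusted p = 0.0549 to 0.141). Without the reporter SP exceeded DP by 1.21 ± 0.22 (edgeR adjusted p = 0.00488), and in WT the levels were 67.5, 58.8 and 54.8 against 22.9, 21.5 and 13.2 CPM (1.65 ± 0.23, edgeR adjusted p = 0.000826). In iEtv2 SP cells Lama4 was lower than in WT SP, at 17.8, 32.6 and 24.1 CPM (log2 -1.28 ± 0.22, edgeR adjusted p = 0.000698). It was thus called in opposite directions with the reporter and with induced Etv2, in sets whose difference was not tested.

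Lama5 rose with the reporter in DP from 75.2, 73.6 and 104 to 127, 158 and 163 CPM (log2 0.82 ± 0.13, edgeR adjusted p = 0.000456). In SP it measured 176, 143 and 175 CPM without and 179, 176 and 177 CPM with the reporter (0.11 ± 0.13). It was higher in SP than in DP without the reporter (0.97 ± 0.13, edgeR adjusted p = 0.000776) and in WT, at 187, 201 and 151 against 97.8, 136 and 88.3 CPM (0.75 ± 0.15, edgeR adjusted p = 0.00633). In iEtv2 SP it reached 310, 312 and 323 CPM (0.81 ± 0.15 over WT SP, edgeR adjusted p = 0.000876) and made up 82.7 ± 3% of laminin alpha RNA. Lama3, the α3 chain of epithelial laminins, rose there from 1.14, 1.37 and 1.1 to 10.1, 12.5 and 10.3 CPM (log2 3.18 ± 0.35, edgeR adjusted p = 2.76e-05). Its call with the reporter in DP rested on 4, 0 and 5 counts against 10, 13 and 15 (2.06 ± 0.61, edgeR adjusted p = 0.021), was 1.41 without DP Etv2-negative replicate 2 and was lost without that library or DP Etv2-positive replicate 2 or 3. In WT, 3, 21 and 5 counts in DP stood against 29, 36 and 26 in SP (1.57 ± 0.48, edgeR adjusted p = 0.0481), which was 2.82 without WT DP replicate 2, and the call was lost without any 1 of the other 8 libraries. Lama2 stayed at or below 1.03 CPM in all libraries (lowest edgeR adjusted p = 0.296).

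Among laminin beta chains Lamb1, with 64.5 to 85.6% of laminin beta RNA, was slightly lower with the reporter in DP, at 169, 198 and 204 CPM against 225, 225 and 223 (log2 -0.24 ± 0.07, edgeR adjusted p = 0.0146, lost without DP Etv2-negative replicate 2), and higher in iEtv2 SP, at 358, 435 and 402 CPM against 240, 254 and 235 (0.71 ± 0.09, edgeR adjusted p = 9.13e-05). Lamb2, the β2 chain, moved the opposite way in both: it rose with the reporter in DP from 32.4, 30.7 and 46.3 to 58.7, 61.5 and 71.3 CPM (0.81 ± 0.14, edgeR adjusted p = 0.000695) and fell in iEtv2 SP to 41.3, 40.7 and 37.9 CPM from 63.2, 57.1 and 57.8 (-0.57 ± 0.10, edgeR adjusted p = 0.000672). It was also higher in SP than in DP without the reporter (0.60 ± 0.14) and in WT (0.43 ± 0.10), the first call lost without any 1 of 3 libraries (DP Etv2-negative replicate 1 or 2, SP Etv2-negative replicate 3) and the second without WT SP replicate 1. Lamb3 ran from 0.241 to 1.25 CPM (lowest edgeR adjusted p = 0.145).

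Lamc1, the γ1 chain of most laminins, made up 96.1 to 98.5% of laminin gamma RNA. It rose with the reporter in DP from 110, 114 and 147 to 134, 189 and 218 CPM, groups that overlapped (log2 0.55 ± 0.15, edgeR adjusted p = 0.0126), and in iEtv2 SP to 257, 288 and 275 CPM from 228, 223 and 167 (0.41 ± 0.13, edgeR adjusted p = 0.0235). The first call was lost without DP Etv2-negative replicate 1 or 2 or DP Etv2-positive replicate 3, and the second without WT SP replicate 3 or iEtv2 replicate 2 or 3. Lamc3, the γ3 chain, fell with the reporter in SP from 1.29, 2.15 and 1.88 to 0.774, 0.63 and 0.514 CPM (-1.47 ± 0.25, edgeR adjusted p = 0.00138) and in DP by -0.75 ± 0.23, the latter lost without any 1 of 5 of its 6 libraries.

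Markers of other cells moved with the DP reporter effect on Itga3, Itga4, Lama4, Lama5 and Lamb2. The 10 markers of feeder fibroblasts summed to 252 to 383 CPM in DP Etv2-negative and 552 to 760 CPM in DP Etv2-positive libraries, with 3 of 6 tested markers higher and 1 lower, and Fap was at 0 in both groups. In DP Etv2-negative cells Dcn and Lum were at 0 as well. The highest DP Etv2-negative sum, 383 CPM, was that of replicate 3, which was also highest in its group for those 5 genes. The 11 endoderm markers summed to 242 to 284 and 422 to 441 CPM, with 3 of 9 higher and 1 lower and none at 0. Neuroectoderm markers summed to 33.4 to 37.1 CPM in DP Etv2-negative and 85 to 98.8 CPM in DP Etv2-positive libraries, with 2 of 4 tested markers higher. Pluripotency markers summed to 170 to 219 and 53.6 to 71.7 CPM, with 1 of 8 higher and 3 lower, and Dppa3 was at 0 in DP Etv2-negative cells. Cardiac markers summed to 74.7 to 91.2 and 113 to 126 CPM, with 6 of 8 higher and 1 lower. None of these 3 sums overlapped between the DP groups. Across the SP reporter groups the fibroblast and endoderm sums overlapped, at 352 to 415 and 338 to 438 CPM for fibroblast and 301 to 353 and 345 to 418 CPM for endoderm markers. The SP groups did not overlap in the pluripotency sum, at 92 to 125 CPM without and 43.8 to 54.4 CPM with the reporter (6 of 8 lower), or in the neuroectoderm sum, at 40.4 to 72.7 and 81.5 to 116 CPM (2 of 4 higher, 1 lower), and they overlapped in the cardiac sum, at 85.5 to 110 and 99.1 to 124 CPM. In iEtv2 over WT SP the fibroblast sum was 125 to 162 against 382 to 422 CPM, with 2 of 6 markers higher and 4 lower, the 9 pluripotency markers summed to 292 to 315 against 66.1 to 106 CPM, with 7 of 9 higher, and the 8 cardiac markers to 5.37 to 9.26 against 75.6 to 87 CPM, with 8 of 8 lower. The neuroectoderm sum was 171 to 202 against 111 to 140 CPM, with 4 of 6 higher. The part of these cells in the results was not tested. Sox17 is in both the endothelial and the endoderm list, and Sox2 in both the neuroectoderm and the pluripotency list, so these sums share genes.

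Natural and induced Etv2 states were compared by the members called in both. Of the 5 members that rose and 5 that fell with the reporter in SP, Itga2b rose and Itga8, Itga11 and Itgb5 fell in iEtv2 SP as well, which is 20% of the reporter increases and 60% of the decreases, and 9.09% and 37.5% of those in iEtv2 cells. Lama4 was called in opposite directions. Against the reporter in DP, Itga3, Itga4, Lama3, Lama5 and Lamc1 were shared increases, 50% of the DP and 45.5% of the iEtv2 increases, Itga8 and Lama1 shared decreases, and Lama4, Lamb1 and Lamb2 opposite calls. These comparisons share no library, and the difference between them was not tested. Of all genes tested, 26.4% were called higher and 24.4% lower in iEtv2 cells. With the reporter, 13.1% were higher and 12.4% lower in SP, and 16% and 14.7% in DP. How many of all genes were called in both was not counted.

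**Figure D4:**
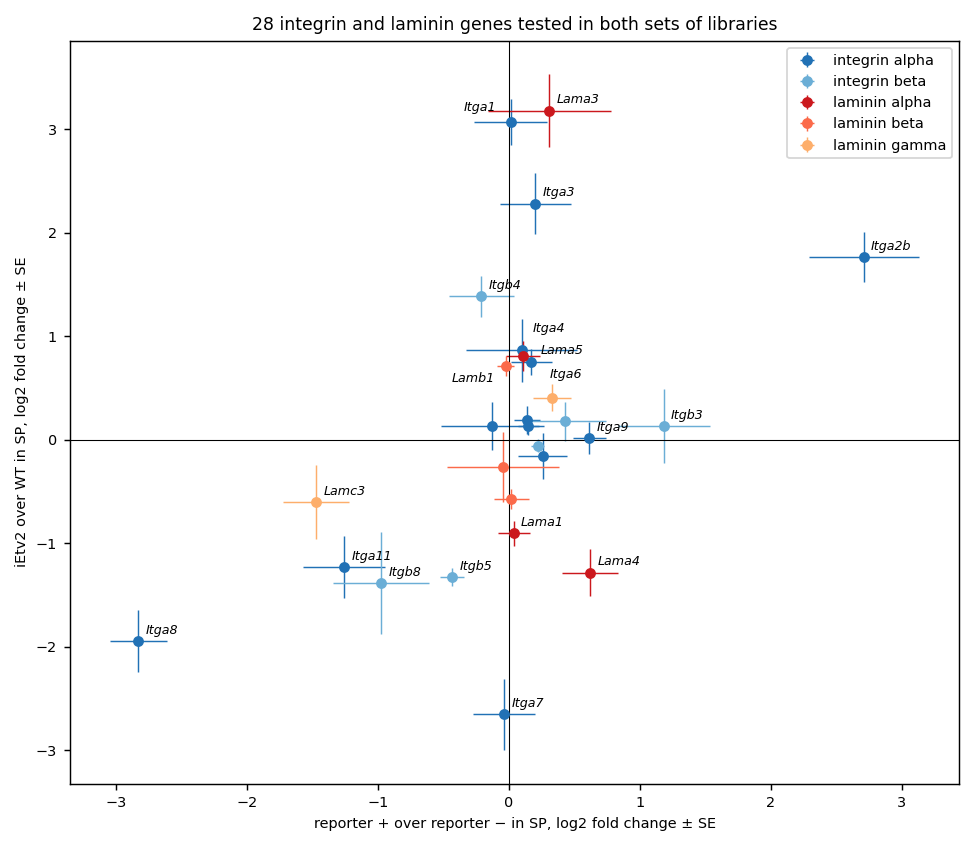
Log2 fold change ± SE of 28 integrin and laminin genes with the Etv2 reporter in SP (horizontal axis) and in iEtv2 over WT SP cells (vertical axis), coloured by chain class. Itga8 lies low on both axes and Itga2b high on both, Itga1, Itga3 and Lama3 lie near 0 on the horizontal axis but between 2.28 and 3.18 on the vertical, and Lama4 lies at the lower right.

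Proteins that work with these chains were followed by lists, whose counts stand against 30.7% of all genes called for the reporter in DP, 25.5% in SP, 15.8% for SP over DP in WT and 50.8% in iEtv2 over WT. Of 18 tested basement membrane partners of laminin, such as collagen IV and nidogen, 11 rose and 3 fell with the reporter in DP and 5 rose and 2 fell in SP. Their median log2 differences were 0.50 and 0.19. Col4a5, a collagen IV chain, rose by 1.85 ± 0.21 in DP and 0.97 ± 0.21 in SP, Nid1, nidogen 1, by 1.01 ± 0.19 in SP, and Ntn1, netrin 1, fell, with -2.62 ± 0.52 in DP and -2.74 ± 0.59 in SP. In WT SP over DP 5 of 20 were higher and 1 lower, and in iEtv2 over WT 11 rose and 3 fell, with Col15a1 at 2.97 ± 0.61 and Col18a1, the source of endostatin, at 2.05 ± 0.22. With no filter on low counts 11 of 22 were called in SP and 10 of 22 in WT, where 13.4% and 9.43% of all genes were called.

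Of 22 other integrin ligands tested in TGET, 11 rose and 2 fell with the reporter in DP and 7 and 3 in SP. Vwf, the von Willebrand factor bound by αIIbβ3, rose by 1.98 ± 0.54 in DP and 3.09 ± 0.44 in SP, and by 3.67 ± 0.39 in iEtv2 cells. Vcam1, the ligand of α4, rose by 2.49 ± 0.68 in DP, where Itga4 rose too. Icam2 rose by 3.41 ± 0.63 in SP and 3.79 ± 0.22 in iEtv2 cells. In WT SP over DP 8 of 21 were higher and 1 lower, and in iEtv2 over WT 10 rose and 4 fell, with Tgfb2, a transforming growth factor β, at -4.47 ± 0.26. The 13 calls in DP became 7 without DP Etv2-negative replicate 2 and 8 without DP Etv2-positive replicate 3, and the 10 in SP became 6 without both libraries of high ribosomal RNA share. In those fits 23.7%, 25.5% and 13.8% of all genes were called, in that order.

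Of 23 tested integrin activators and adaptors, 9 rose and 3 fell with the reporter in DP and 6 and 1 in SP, the latter a share near the 25.5% of all genes. Fermt3, kindlin-3 of blood and endothelial cells, rose by 1.55 ± 0.31 with the reporter in SP and was 1.84 ± 0.29 higher in WT SP than WT DP. Tln1, talin 1, rose by 0.42 ± 0.08 in SP, and Tln2, talin 2, fell, with -0.55 ± 0.09 there and -1.57 ± 0.10 in iEtv2 cells. Fermt1, kindlin-1, fell by 1.18 ± 0.26 in DP and rose by 2.24 ± 0.25 in iEtv2 cells. In WT SP over DP 6 of 22 were higher and 2 lower, and in iEtv2 over WT 8 rose and 7 fell. The 7 calls in SP became 3 without SP Etv2-negative replicate 2, where 20.1% of all genes were called.

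Fibrillar collagens, which are among the ligands of the α1 and α2 chains, numbered 4 higher and 4 lower of 9 in iEtv2 over WT, where 50.8% of all genes were called. Col5a2 and Col5a3, chains of collagen V, rose there by 2.95 ± 0.24 and 3.41 ± 0.51, and Col5a1 fell by 2.45 ± 0.20. Col1a1, a chain of collagen I, fell by 5.08 ± 0.39 in iEtv2 cells and rose by 2.28 ± 0.34 with the reporter in DP. It is also among the fibroblast markers above. With the reporter in DP 1 of 8 rose and 1 fell (1 call without DP Etv2-negative replicate 1 or DP Etv2-positive replicate 3), and in SP 1 fell (2 calls without DP Etv2-positive replicate 3). In those left-out fits 22.4%, 25.5% and 25.4% of all genes were called, in that order. With the replicate number as a block 3 rose and 2 fell in DP and 1 rose and 1 fell in SP. With no filter on low counts 5 of 9 were called in DP and 4 in SP, where 15.5% and 13.4% of all genes were called. Without both libraries of high ribosomal RNA share, edgeR called 0 in SP (1 at an unadjusted p below 0.05), where 13.8% of all genes were called. DESeq2 called 2 in SP with all libraries, where 25.9% of all genes were called. A fit on both DP groups alone called 1 in DP. Over all genes tested, the median log2 difference of each comparison lay between -0.01 and 0.00.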

How the data were processed

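Total RNA of 21 samples was sequenced, and their labels place 3 in each of 7 groups. Unnormalized counts for each Ensembl gene ID were deposited by the authors. The submitters' processing notes name featureCounts and mm10, without versions. The aligner, annotation and strand setting are not given in the sources used here. The 12 TGET libraries came as 1 table and the other 9 as separate files with summary entries of another counting tool, so the tool is in doubt for those 9, the entries were left out, and each set was fitted on its own. Of 55487 gene IDs, 55227 were named from GENCODE M21 and 260 were not.

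Tests used edgeR 4.0.16 in R 4.3.3: TMM scaling, filterByExpr defaults, 1 term per group and two-sided quasi-likelihood tests, with Benjamini-Hochberg adjustment over all genes tested. CPM are counts scaled to TMM-adjusted library size. A standard error is the absolute log2 fold change over the square root of F. Per-length levels used merged exon lengths. Depth ran from 22406153 to 32777143 counts, and floors of 3 counts cover counting error only. Tests were checked on simulated data.

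The rule for the members used symbols only, but this rule and the gene lists were set with earlier results of these data known. The lists were integrin activators and adaptors, basement membrane partners of laminin, other integrin ligands, fibrillar collagens and markers of 9 cell types. The values of 1 member are not reported here, though it is included in counts. Any other member could be named, and up to 4 called genes per list with the largest changes. Sequences were shown for members with large called changes, and Itga5 and Itgb5 were added after their values were seen.

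Replicate numbers paired libraries, by correlations of deviations from group means all over 0.1, for the reporter in DP (0.175 to 0.342) and SP (0.143 to 0.268). For SP over DP the lowest same-number correlation was under 0.1, but each exceeded every other-number one. These were 0.0962 to 0.334 against at most 0.0502 without the reporter, and 0.0767 to 0.269 against at most 0.0662 with it. In WT they were 0.0916 to 0.342 against at most 0.0879. The main tests used no replicate block. Alternatives were RLE and upper-quartile scaling, DESeq2 1.42.0, no low-count filter, a minimum of 1 CPM in at least 3 libraries, a replicate block, only the compared groups, removal of mitochondrial-encoded and ribosomal RNA genes, a 2-fold minimum, other gene lengths and each library left out. A fit without the pair of libraries rich in ribosomal RNA was chosen after seeing the data. Python 3.11.15, numpy 2.4.6, pandas 2.3.3 and matplotlib 3.10.9 were used for tables and plots.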

Additional observations from a re-analysis of the deposited data

Results flagged for a closer look

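The effect of the Etv2 reporter differed between SP and DP cells for 6 members, by edgeR's test of that difference itself (Benjamini-Hochberg adjusted p below 0.05), given here as the log2 effect in SP minus that in DP. Itga2b had 2.66 ± 0.68 (edgeR adjusted p = 0.0489), with an effect of 2.71 ± 0.42 in SP and 0.06 ± 0.54 in DP, and the difference was 1.87 without SP Etv2-positive replicate 3. Lama1 had 0.70 ± 0.17 (edgeR adjusted p = 0.0387), with 0.04 ± 0.12 in SP and -0.67 ± 0.12 in DP. Itga3 had -1.97 ± 0.40 (edgeR adjusted p = 0.0254), with 0.20 ± 0.27 in SP and 2.17 ± 0.29 in DP. Itgb5 had -0.62 ± 0.13 (edgeR adjusted p = 0.0294), with -0.44 ± 0.09 in SP and 0.18 ± 0.09 in DP. Lama5 had -0.72 ± 0.18 (edgeR adjusted p = 0.0464) and Lamb2 -0.79 ± 0.19 (edgeR adjusted p = 0.0397), each with a rise in DP and differences of 0.11 ± 0.13 and 0.02 ± 0.13 in SP. Left out 1 at a time, 6 of the 12 TGET libraries ended the call of Itga3, 7 that of Itgb5, 9 those of Lama1 and Lama5 and 10 those of Itga2b and Lamb2, with edgeR adjusted p-values of 0.0504 to 0.135. The direction stayed the same in each of those fits.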

How the results depend on the processing

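No member changed direction in a comparison in which it was called. With a minimum of 2-fold, 7 members were called for the reporter in DP, 5 in SP, 5 for SP over DP without the reporter, 2 for the reporter-by-gate difference and 12 in iEtv2 over WT. In that order 1276, 905, 494 and 269 of all 17690 tested genes were called at this minimum, and in iEtv2 over WT 3148 of 16288. With no filter on low counts, 15 of 35 members were called for SP over DP without the reporter, 10 with it and 10 for the reporter-by-gate difference. Of all 35472 genes then tested, 7.86%, 8.82% and 4.91% were called in that order. Without both libraries of high ribosomal RNA share, 6 were called for the reporter in SP, where 13.8% of all genes were called. For the reporter-by-gate difference edgeR then called 0, against 0.666% of all genes, with 12 members at an unadjusted p below 0.05. DESeq2 with all libraries called 6 members for that difference, against 8.3% of all genes. Leaving out each library in turn gave 10 to 14 calls for the reporter in DP, 7 to 12 in SP, 6 to 11 for the gates without the reporter and 4 to 6 with it, 0 to 9 for the reporter-by-gate difference, 9 to 13 in WT and 16 to 19 in iEtv2 over WT. Over these fits the share of all genes called ran from 22.4% to 30.4% for the reporter in DP and from 18% to 29.2% in SP. It ran from 4.37% to 13.2% for the gates without the reporter and from 7.48% to 13.9% with it. For the reporter-by-gate difference it ran from 0.279% to 7.07%, in WT from 9.02% to 16.3% and in iEtv2 over WT from 41.2% to 52.5%. The cause was not tested. With the longest transcript as length, 109 of the class shares moved by more than the spread between libraries, and that of Lama4 became 17.6% in DP Etv2-negative, 36.1% in DP Etv2-positive and 11.4% in iEtv2 SP cells. Depth limits the leukocyte chains and Itga2, Itgb6 and Lama3, which had few counts or none in most libraries.

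With the replicate number as a block, edgeR called 14 members for the reporter in DP, 11 in SP, 11 for the gates without the reporter and 6 with it, 8 for the reporter-by-gate difference, 15 in WT and 19 in iEtv2 over WT. The shares of all genes called rose too, to 35.1%, 30.8%, 15.8%, 19.1%, 8.69%, 19.9% and 54.9% in that order. For the reporter in DP and SP, where all same-number correlations were over 0.1, Itgb8 in SP was the member whose call the block changed. Fibrillar collagen calls there went from 2 to 5 in DP and from 1 to 2 in SP, and other integrin ligands in SP from 10 to 14. The reporter-by-gate difference is built from these comparisons, and the block added calls of Lama4 and Itga4 to it. Lama4 had -1.07 (edgeR adjusted p = 0.00417, without the block 0.074) and Itga4 -1.79 (edgeR adjusted p = 0.0416, without the block 0.107). For SP over DP without the reporter the block added Itga5 (edgeR adjusted p = 0.0339, without the block 0.0875) and Lamb1 (0.0445, without the block 0.0562). In WT it added Itga7 (edgeR adjusted p = 0.0467, without the block 0.113) and Lamc1 (0.022, without the block 0.0837).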
